A study of Rattus norvegicus with 4 samples.

Results

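The imprinted genes Igf2, H19 and Gnas lie beside or contain genes for microRNAs (miRNAs), and 5 mature miRNAs of these loci were followed here in extracellular vesicles of rat macrophages. They are rno-miR-483-5p and rno-miR-483-3p, the 2 arms of a hairpin inside Igf2, rno-miR-675-5p and rno-miR-675-3p, the 2 arms of a hairpin inside H19, and rno-miR-296-5p, whose hairpin neighbours Gnas. The prefix rno, for rat, is left off from here on. They were chosen by name and locus and make up 5 of the 758 rat miRNAs on the array (release 21 of the miRNA catalogue).

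An imprinted gene is transcribed mainly from the copy inherited from one parent. Igf2, which encodes a growth factor, is read from the paternal copy and H19, a long non-coding RNA, from the maternal one. Both are strongly expressed in the fetus and are largely silenced after birth in most tissues. Gnas encodes the stimulatory G protein alpha subunit, and in mouse miR-296 and miR-298 come from a transcript antisense to that locus. A hairpin is cut into a 5p and a 3p arm, each of which can be loaded into the silencing complex, where bases 2 to 8 of the miRNA, the seed, pair with target messengers.

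The vesicles came from male wild-type Sprague-Dawley rats. In the M0_sham group (n = 2 arrays) the rats had a sham operation, in the M1_OA group (n = 2 arrays) destabilisation of the medial meniscus and anterior cruciate ligament transection of the right knee, which causes osteoarthritis (OA), at 8 weeks of age, and marrow was taken 8 weeks after surgery. Sorted CD45+ CD11b+ cells of both groups were grown in medium with 10% fetal bovine serum and 20 ng/mL M-CSF to day 7 (M0), and the M1 cells then had 100 ng/mL lipopolysaccharide and 20 ng/mL IFN-γ for 48 hours and 5 mM ATP for 60 minutes. Surgery, polarisation and ATP therefore change together, and their parts in a difference cannot be told apart. Whether the replicates were separate animals or cultures is not in the labels, so the p-values reflect array-to-array spread that may be technical. A larger amount of a miRNA per vesicle and a larger number of vesicles behind the labelled RNA cannot be told apart either.

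The mature sequences, from RefSeq (GRCr8), are shown because the members differ in seed and in base composition; the seed is in capitals.
miR-483-5p: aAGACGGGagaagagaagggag
miR-483-3p: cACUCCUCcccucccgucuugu
miR-675-5p: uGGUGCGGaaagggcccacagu
miR-675-3p: uGUAUGCCcuaaccgcucagu
miR-296-5p: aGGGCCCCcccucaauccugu
On the minus strand of GRCr8 they lie at chr1:207247903-207247924, chr1:207247865-207247886, chr1:207161800-207161821, chr1:207161766-207161786 and chr3:183470114-183470134, in that order. The 5 seeds are all different, and 0 other rat mature miRNAs in RefSeq share any of them. miR-483-5p is 95.5% purines (A and G) and miR-483-3p 13.6%. miR-296-5p holds an unbroken run of 7 C, which 2 of the 685 array miRNAs matched by name to RefSeq hold, itself included.

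Both arms of the Igf2 miRNA are shown within the Mir483 hairpin (chr1:207247859-207247931, GRCr8, minus strand), with the 2 mature arms in capitals, because only the 5p arm was detected on any array.
Mir483: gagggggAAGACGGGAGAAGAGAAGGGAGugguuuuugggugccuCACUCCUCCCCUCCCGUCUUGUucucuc
The array measures each arm with its own short probes, complementary to the 3′ end of the mature miRNA. The probes of the 3 members whose summed signal was above 0 on all 4 arrays are shown. Their length and letters bear on what each spot can read. CTCC is in capitals where it occurs.
miR-483-5p probe of 10 bases: CTCCcttctc
miR-483-5p probe of 11 bases: CTCCcttctct
miR-483-5p probe of 12 bases: CTCCcttctctt
miR-483-5p probe of 13 bases: CTCCcttctcttc
miR-483-3p probe of 17 bases: acaagacgggaggggag
miR-483-3p probe of 18 bases: acaagacgggaggggagg
miR-296-5p probe of 16 bases: acaggattgagggggg
miR-296-5p probe of 17 bases: acaggattgaggggggg
The miR-483-5p probes read bases 13, 12, 11 or 10 to 22 of the miRNA, so none covers its seed. Of all RefSeq rat mature miRNAs, 0 others match any of these probes without a mismatch.

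A signal here is the background-subtracted processed intensity, averaged over a probe's spots and summed over the probes of a miRNA; it can fall below 0. The scanner flags each spot that is well above background. A miRNA is called well above background on an array when one or more of its probes has this flag on a share of its spots greater than 0.5. By that rule M0_sham replicates 1 and 2 detected 23 (3.03%) and 13 (1.72%) of 758 miRNAs, M1_OA replicates 1 and 2 detected 42 (5.54%) and 45 (5.94%), and 55 (7.26%) were detected somewhere. The lowest signals so detected were 7.78, 26.7, 16.9 and 14.6 in the same order, so weak signals were resolved unequally. Spots of the negative-control probes averaged 4.34 ± 2.14 and 4.85 ± 2.48 on the M0_sham arrays and 10.5 ± 4.10 and 7.06 ± 3.48 on the M1_OA arrays (SD over 397 to 427 spots). The 2 M0_sham arrays were read in 1 scan session and the 2 M1_OA arrays in another, so the session and the group cannot be told apart. Of 6 macrophage and myeloid marker miRNAs, 1 was well above background on an M0_sham array and 4 on an M1_OA array. Their signals, with those below 0 counted as 0, summed to 16.8 to 26.3 on the M0_sham arrays against 531 to 711 on the M1_OA arrays. Of these markers, miR-142-3p and miR-142-5p, which leukocytes express abundantly, were well above background on 0 arrays. Erythroid, liver, stromal, lymphocyte and epithelial markers were well above background on 0 arrays, and of 3 muscle markers only miR-206-3p was, on 1 M1_OA array.

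Of the 5 members, both M1_OA arrays detected miR-483-5p and both M0_sham arrays detected miR-296-5p, while the other 3 were detected on 0 of 4 arrays. These 2 members are among the 41 miRNAs (5.41% of 758) detected in both replicates of either group, which were tested. Each had to be bright in the group through which it was admitted. The 5 members therefore fall into 1 that was higher in M1_OA, 1 that was lower after scaling, and 3 with no test.

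miR-483-5p, processed from an Igf2 intron and in mouse OA reported to act on Matn3 and Timp2 in cartilage, gave signals of 12.3 and 18.7 on the M0_sham arrays and 226 and 208 on the M1_OA arrays. Both M1_OA signals lay far above both M0_sham signals. Without scaling, 33 of the 41 tested miRNAs (80.5%) had both M1_OA signals above both M0_sham signals, so this order was common. The well-above-background flag was set on 16 of 16 spots on each M1_OA array and on 1 of 16 on each M0_sham array. On the M0_sham arrays, 10 and 12 of the 16 spots were positive and significant by the scanner's weaker flag. The scanner's own call per miRNA, which was set for 22 to 60 of 758 miRNAs an array, was set for miR-483-5p on all 4 arrays.

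Each of the 4 probes of miR-483-5p separated the groups. The 13-base probe averaged 6.02 ± 0.849 and 10.0 ± 3.37 on M0_sham replicates 1 and 2 (SD, n = 4 spots, as for the other probes) and 90.4 ± 0.812 and 78.9 ± 5.14 on M1_OA replicates 1 and 2. The 10-base probe averaged 1.44 ± 3.07 and 0.732 ± 1.92 against 19.6 ± 5.10 and 25.9 ± 2.60. The 11-base and 12-base probes lay between 2.36 and 4.92 on the M0_sham arrays and between 48.2 and 61.2 on the M1_OA arrays. At no probe did the groups overlap. The 4 probes are nested, each holding the bases of the shorter ones, so they do not count as separate supports. How often the probes of other miRNAs separate the groups was not counted. On the M0_sham arrays the means of the 10-base and 11-base probes, and of the 12-base probe on replicate 1, lay under the negative-control means of 4.34 and 4.85, so no fold is given per probe.

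**Figure D1:**
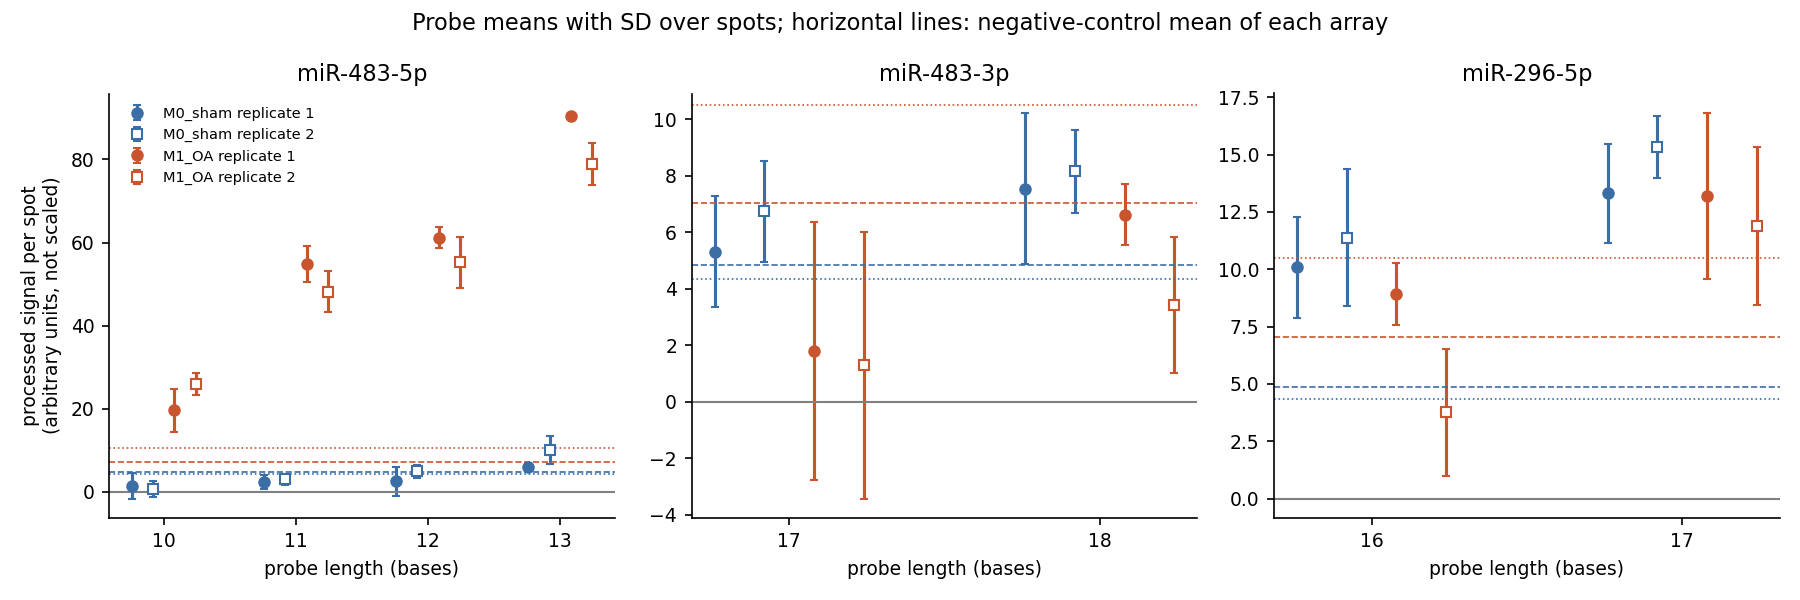
Mean processed signal (linear, unscaled, background-subtracted) of each probe of 3 members on each of the 4 arrays. Panels show miR-483-5p, miR-483-3p and miR-296-5p by probe length in bases; colours mark the group, filled circles replicate 1, open squares replicate 2, bars the SD over spots, and horizontal lines each array's negative-control mean. All 4 probes of miR-483-5p stand well above the lines on the M1_OA arrays, while the miR-483-3p means and the 16-base miR-296-5p means on those arrays lie under their own array's line.

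Scaled to the 75th percentile of the 11 miRNAs that every array detected, miR-483-5p stood at 25.2 and 28.5 in M0_sham and 106 and 143 in M1_OA. The log2 difference, M1_OA minus M0_sham, was 2.20 ± 0.22 (SE), with a BH-adjusted p of 0.0040 from limma over the 41 tested miRNAs. As neither M0_sham array detected miR-483-5p by the rule used here, its fold is a lower bound, which holds only for this summary and scaling of the signal. Each M0_sham signal was taken as the higher of its own value and that array's lowest detected signal. On that basis miR-483-5p was at least 3.84-fold higher in M1_OA. In the same fit 22 of 41 miRNAs (53.7%) passed as higher in M1_OA, so a call in this direction was common. Among the 29 tested miRNAs that both M1_OA arrays, but not both M0_sham arrays, detected, 20 (69%) passed. miR-483-5p is one of these 29, admitted through the group in which it is higher. The direction of its call, scaled or unscaled, is therefore not independent of the filter. Without scaling the log2 difference of miR-483-5p was 3.84 ± 0.29, at least 12.0-fold, with a BH-adjusted limma p of 2.89e-04, beside 32 of 41 miRNAs (78%) passing as higher.

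The size of the miR-483-5p difference depended on how the signal was summarised. On the Feature Extraction total gene signal it was 0.62 on the log2 scale, with a BH-adjusted limma p of 0.269, because there the M0_sham totals were 8.43 and 18.8, against 3.27 and 4.96 for the sum of the probe totals, and the M1_OA totals 60.0 and 55.3. The authors' deposited table gave log2 values of -0.36 and 1.85 in M0_sham and 3.32 and 3.32 in M1_OA, a difference of 2.57 with a BH-adjusted limma p of 0.102. With the normexp background and an offset of 50 the difference was -0.28, with a BH-adjusted limma p of 0.296.

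**Figure D2:**
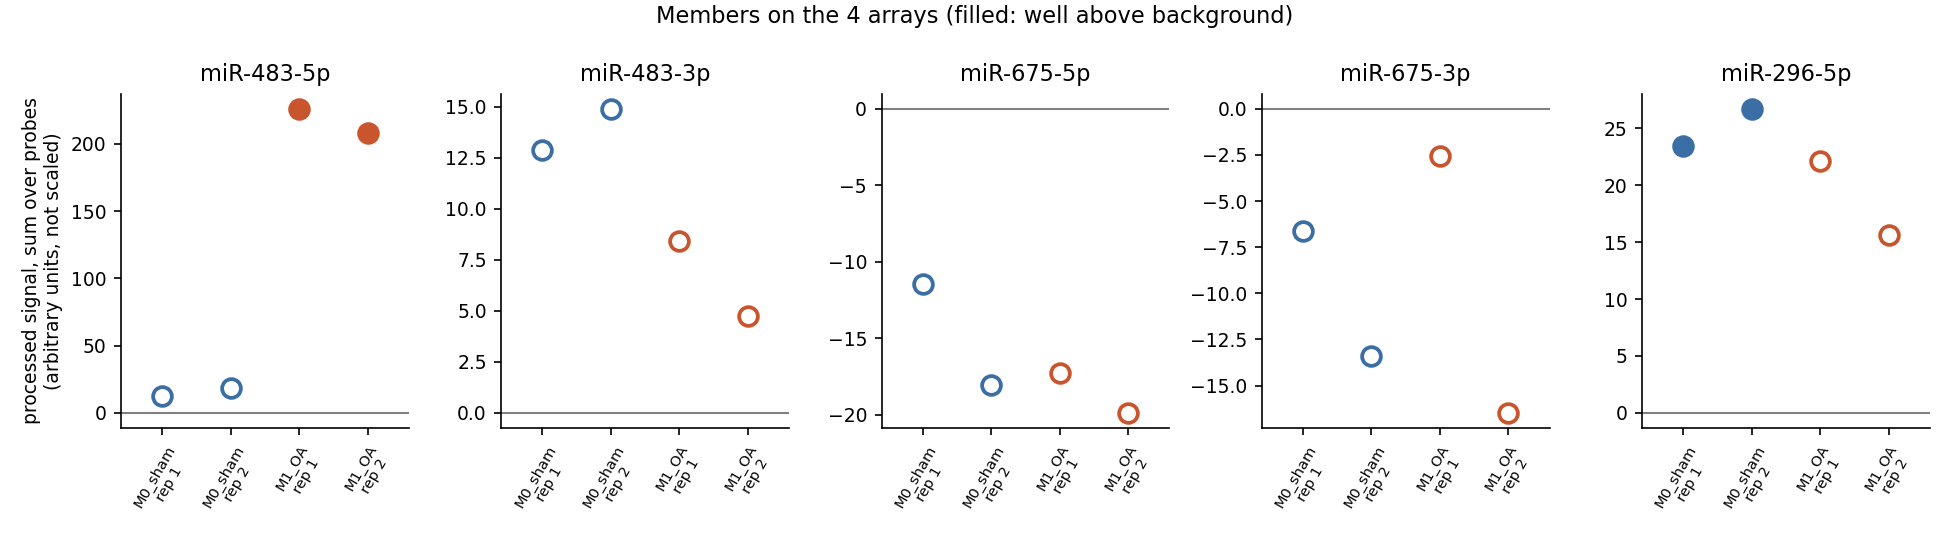
Processed signal (arbitrary units, not scaled, summed over probes) of each member on the 4 arrays, one panel a member with its own axis; blue is M0_sham, orange M1_OA, and filled points are well above background. miR-483-5p rises from 12.3 and 18.7 to 226 and 208, while miR-296-5p stays between 15.6 and 26.7 on all 4 arrays.

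miR-483-3p, the other arm of the same hairpin, known in human cells to target the apoptosis gene BBC3, gave 12.9 and 14.9 on the M0_sham arrays and 8.42 and 4.73 on the M1_OA arrays. Both M1_OA signals were thus below both M0_sham signals. How often miRNAs outside the 41 tested show such an order was not counted, so it is not read as a result about this arm. The 10-base and 11-base probes of miR-675-5p, not detected on any array, had the same order. miR-483-3p reached the detection rule on 0 of 4 arrays: 5, 0, 1 and 0 of 16 spots carried the flag, although 16, 16, 12 and 7 were positive and significant. The scanner's own call per miRNA was set on M0_sham replicate 1 alone. The lowest spot so flagged on M0_sham replicate 1 had a signal of 7.26, against 13.2 to 14.1 on the other 3 arrays, and 5 of the 6 flagged spots of miR-483-3p were on that array. No test was made, and a difference between the groups was not resolvable for this arm.

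By probe, miR-483-3p averaged 7.55 ± 2.68 and 8.16 ± 1.46 (SD, n = 6 to 8 unmarked spots) on the M0_sham arrays with the 18-base probe, and 6.63 ± 1.09 and 3.43 ± 2.42 on the M1_OA arrays. With the 17-base probe it averaged 5.32 ± 1.96 and 6.75 ± 1.79 against 1.79 ± 4.56 and 1.30 ± 4.72. The M1_OA means of the 17-base probe were smaller than the SD over its spots. All 4 M1_OA means were under the mean of their array's negative-control spots, and all 4 M0_sham means above it.

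The 2 arms can be set against each other within an array, where any factor common to the array cancels. The ratio of miR-483-5p to miR-483-3p was 0.958 and 1.25 on the M0_sham arrays and 26.8 and 44.0 on the M1_OA arrays. Since different probes differ in brightness for the same amount of RNA, the ratio itself does not say which arm was more abundant, and only its change between arrays can be read. No fold is given for it, because miR-483-3p was detected on 0 of 4 arrays and miR-483-5p on neither M0_sham array.

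Neither arm of the H19 miRNA was measurable. miR-675-5p and miR-675-3p are cut from the first exon of H19, whose miR-675 restrains placental growth in mouse and is linked to collagen II expression in human chondrocytes. miR-675-5p gave summed signals of -11.5, -18.0, -17.3 and -19.9 on M0_sham replicates 1 and 2 and M1_OA replicates 1 and 2. miR-675-3p gave -6.64, -13.4, -2.54 and -16.5. All 8 sums were below 0, and the groups overlapped for both arms. Of 64 spots for each arm over the 4 arrays, 0 were well above background, the scanner's own call per miRNA was set on 0 arrays, and 2 for the 5p arm and 5 for the 3p arm were positive and significant. In the authors' deposited table both arms stand at its floor of -3.32 on all 4 arrays. The lowest detected signals given above are the limit here: these miRNAs were not detectable, which does not show that they were absent.

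miR-296-5p, which in human endothelial cells targets HGS, a regulator of growth factor receptor sorting, gave signals of 23.4 and 26.7 on the M0_sham arrays and 22.1 and 15.6 on the M1_OA arrays. Both M1_OA signals were below both M0_sham signals, with 22.1 and 23.4 as the nearest pair. Among the 41 tested miRNAs, 33 (80.5%) had both unscaled M1_OA signals above both M0_sham signals and 2 (4.88%) had both below, namely miR-296-5p and miR-466b-5p. Of the 41, 29 were admitted through the M1_OA arrays alone, and miR-296-5p was the 1 admitted through the M0_sham arrays alone. These shares are therefore bound up with the filter. The flag was set on 16, 8, 4 and 3 of its 16 spots, and on 61 of its 64 spots over all arrays the signal was positive and significant. The scanner's own call per miRNA was set on all 4 arrays. On M0_sham replicate 2 it was itself the dimmest miRNA well above background.

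The 2 probes of miR-296-5p differed in how far the groups stood apart. The 17-base probe averaged 13.3 ± 2.16 and 15.3 ± 1.37 on the M0_sham arrays and 13.2 ± 3.61 and 11.9 ± 3.46 on the M1_OA arrays (SD, n = 5 to 8 unmarked spots). The 16-base probe averaged 10.1 ± 2.21 and 11.4 ± 2.98 against 8.92 ± 1.33 and 3.76 ± 2.75. The means of the 17-base probe thus spanned 11.9 to 15.3, with SDs over spots of 1.37 to 3.61, and the 16-base probe on M1_OA replicate 2 was the one that lay well below the rest. On both M1_OA arrays the 16-base probe was under the mean of the array's negative-control spots (10.5 and 7.06), and on both M0_sham arrays above it (4.34 and 4.85). On M1_OA replicate 1 a share of exactly 0.5 of the spots of the 17-base probe was well above background, just short of the rule used.

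After scaling, miR-296-5p stood at 47.8 and 40.7 in M0_sham and 10.4 and 10.7 in M1_OA. The log2 difference was -2.06 ± 0.15 (SE), with a BH-adjusted limma p of 0.00207, a measured 4.18-fold lower signal in M1_OA. Neither M1_OA array detected it by the rule used here, so this fold rests on signals not called well above background. Both M1_OA signals lay above their array's lowest detected signal, so none was raised to it and the fold is not a bound. In that fit 4 of 41 miRNAs (9.76%) passed as lower. Since miR-296-5p was admitted through the group in which it is higher, the direction of this call is not independent of the filter. The call rested on the scaling: without it the log2 difference was -0.43 ± 0.27, a measured 1.34-fold, with a BH-adjusted limma p of 0.200, so a decrease was not resolved. In that unscaled fit 0 of 41 miRNAs passed as lower, 0 also at an unadjusted p of 0.05. Scaled to the labelling spike-ins the difference was 0.10, with a BH-adjusted limma p of 0.569. With quantile normalization it was -2.39, with a BH-adjusted limma p of 0.00797. The authors' deposited table gave log2 values of 2.34 and 3.23 in M0_sham and -1.66 and -1.74 in M1_OA. That is a difference of -4.48, with a BH-adjusted limma p of 0.00597. The scale factors were 2.04 and 1.52 for the M0_sham arrays and 0.468 and 0.687 for the M1_OA arrays, since the miRNAs used for scaling were brighter in M1_OA. With 1 array left out, the scaled difference was -1.92 with a BH-adjusted limma p of 0.0707 without M0_sham replicate 2, and -2.04 with 0.0548 without M1_OA replicate 1.

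**Figure D3:**
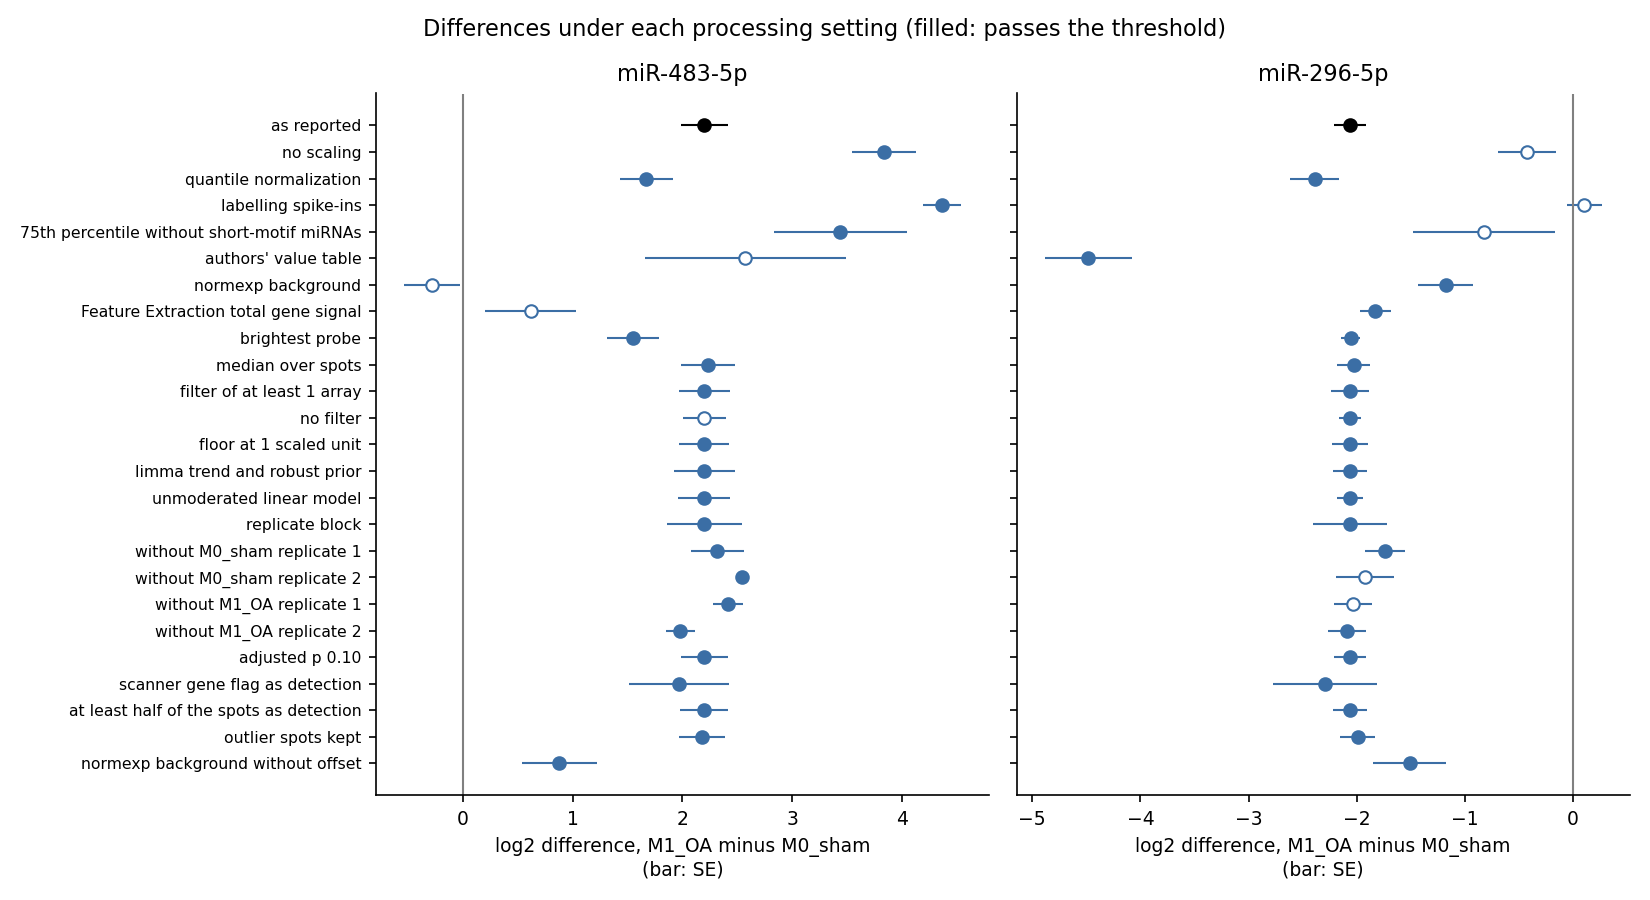
Log2 difference, M1_OA minus M0_sham, of miR-483-5p and miR-296-5p under each processing setting; bars are SE, filled points pass the threshold, and the black point is the value as reported. miR-483-5p lies above 0 in all but the normexp setting with its offset, at -0.28. miR-296-5p moves from -2.06 as scaled here to -0.43 without scaling and 0.10 with spike-ins, and to -4.48 in the authors' table.

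Over the 41 tested miRNAs, the log2 difference had a median of 0.62 as scaled and 1.96 without scaling. miR-483-5p lay 1.58 above it as scaled, and miR-296-5p lay at -2.68 relative to it. Such a distance hardly depends on a factor common to an array, so other scalings of this kind give no separate support for it. miR-296-5p was the 1 tested miRNA admitted through the M0_sham arrays alone, against 29 admitted through the M1_OA arrays alone, and its place below the median is bound up with that filter.

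The ratio of miR-483-5p to miR-296-5p within an array needs no scaling. It was 0.527 and 0.700 on the M0_sham arrays and 10.2 and 13.3 on the M1_OA arrays, a measured change of 4.26 on the log2 scale. Neither M0_sham array detected the numerator and neither M1_OA array the denominator, so the fold is given as a bound, for this processing alone. It was at least 16.1-fold with signals under an array's lowest detected signal raised to it. On M0_sham replicate 2 that lowest signal was miR-296-5p itself, so the raised numerator there equals the denominator. Over 11 alternatives of the processing the measured change ran from 0.90 to 7.06 on the log2 scale. Each of the pair was admitted through the group in which it is higher, so the direction of the ratio is not independent of the filter. The exact permutation test over the 6 splits of 2 against 2 arrays gave a two-sided p of 0.33, the smallest possible with 4 arrays.

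**Figure D4:**
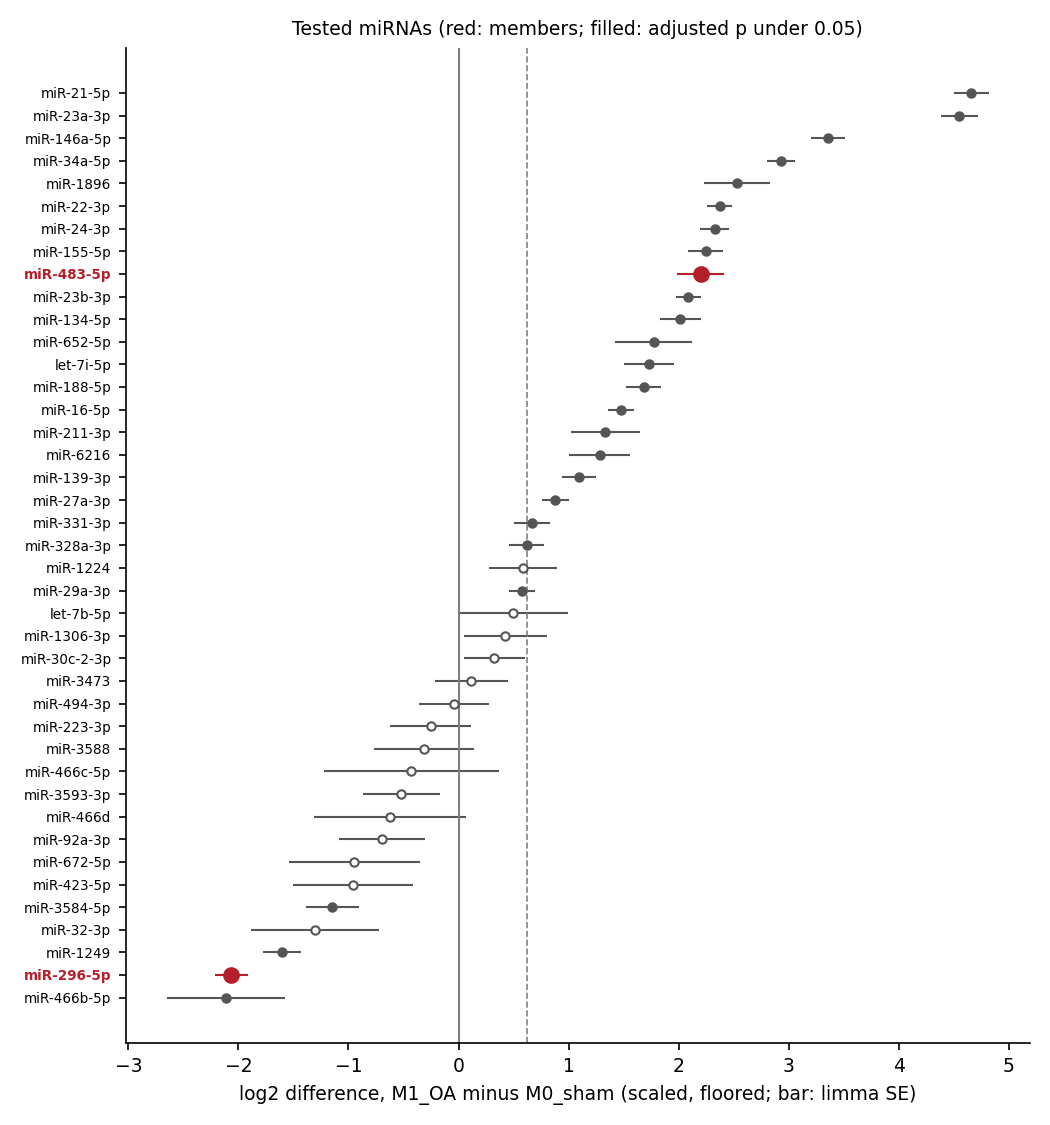
Scaled log2 difference, M1_OA minus M0_sham, of all 41 tested miRNAs in order of size, with the 2 tested members in red, bars for the limma SE, filled points for an adjusted p under 0.05 and a dashed line at the median of 0.62; differences that rest on floored signals have no exact order. miR-483-5p (2.20) is one of 22 that passed as higher and miR-296-5p (-2.06) one of 4 that passed as lower.

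The tested miRNAs with the profile most like that of miR-483-5p over the 4 arrays, by root mean square distance of centred log2 values, were miR-155-5p (0.085), miR-134-5p (0.114) and miR-24-3p (0.133). miR-155-5p, induced by lipopolysaccharide in macrophages, gave -3.30, -6.63, 72.4 and 60.3 on M0_sham replicates 1 and 2 and M1_OA replicates 1 and 2. All 3 were below the floor of 7.90 on both M0_sham arrays, so their profiles there are set by the floor, whereas miR-483-5p lay above it. Nearest to miR-296-5p were miR-1249 (0.249), miR-466b-5p (0.444) and miR-3584-5p (0.504). miR-1249 gave 25.4, 30.7, 31.2 and 26.3, signals that overlap between the groups without scaling.

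Of 47 further miRNAs listed from the imprinted Gnas, Mest and Dlk1-Dio3 loci, 3 (6.38%) were well above background on any array and 2 (4.26%) were tested. These shares are near those over all 758 miRNAs (7.26% and 5.41%). Of the 2 tested, 1 passed as higher and 0 as lower by limma. The Gnas neighbours of miR-296-5p gave no usable signal. The other arm of its hairpin, miR-296-3p, gave -14.8, -20.3, -5.95 and -12.7 on the 4 arrays in the order above. miR-298-5p gave 7.26, 7.27, 11.8 and 0.495, and miR-298-3p stayed between -2.62 and 0.609. None of these 3 was detected on any array.

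In the Dlk1-Dio3 cluster, a large maternally expressed group of miRNAs, the one that passed was miR-134-5p, which in rat neurons acts on Limk1. Its signals were -7.37 and -9.36 in M0_sham and 59.8 and 52.9 in M1_OA, at least 1.25-fold higher as scaled and at least 3.90-fold unscaled, with BH-adjusted limma p-values of 0.00392 and 2.89e-04. miR-494-3p gave 7.78 and 6.33 against 23.6 and 19.1, with a BH-adjusted limma p of 0.902 as scaled and 0.00367 unscaled. miR-370-3p was well above background on M0_sham replicate 1 alone and gave 20.8, 5.76, 16.4 and 14.5. The 2 tested members of the cluster thus both stood higher in M1_OA before scaling, and 1 of them after it. This was common: of the 41 tested miRNAs, 33 (80.5%) had both unscaled M1_OA signals above both M0_sham signals. As scaled, 22 of 41 (53.7%) passed as higher. Both cluster members were also admitted through the M1_OA arrays, so the direction is not independent of the filter.

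All 4 probes of miR-483-5p hold the letters CTCC, the complement of the GGAG at its 3′ end, and no probe of the other 4 members does. Of the 758 miRNAs, 40 (5.28%) have CTCC in a probe, searched on the probe's own strand. Of these 40, 10 were tested, against 31 of the 718 without it. As scaled, 6 of the 10 passed as higher and 1 as lower, with a median log2 difference of 1.19, against 16 and 3 of the 31, with a median of 0.58. Without scaling, 9 of the 10 passed as higher and 0 as lower, with a median of 2.42, against 23 and 0 of the 31, with a median of 1.72. Its part in the difference of miR-483-5p was not tested.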

How the data were processed

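Intensity was read from 4 deposited scanner files, 1 per array. Per the file headers, Agilent Feature Extraction 10.7.1.1 subtracted background after spatial detrending, and arrays were not scaled to each other. The deposited files also hold flags of 0 or 1 and total gene and probe signals. The authors deposited a table of log2 values with a floor at -3.32; its normalization between arrays is not given in the sources used here. Per the labels, 0.2 µg RNA was labelled with a kit that amplifies cRNA, and whether this applies to miRNA arrays is unclear.

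Outlier spots were left out, a probe's spots averaged and the probes of a miRNA summed (1806 probes and 12128 spots per array). Arrays were scaled to the 75th percentile of the 11 miRNAs that all 4 detected, floored at 7.90, the dimmest scaled signal that any array detected, and taken to log2. The 41 miRNAs detected in both replicates of either group entered limma 3.58.1 in R 4.3.3 (lmFit and eBayes, two-sided, BH over the 41, threshold 0.05). The fit was tested on simulated data. No spot was saturated. The number of arrays, 2 a group, limits the precision. Sequences are from RefSeq (GRCr8). Plots were drawn with matplotlib 3.10.9.

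The members, the lists of imprinted and marker miRNAs and the tests were chosen with earlier results of these data known. Besides the members, the text names the 3 tested miRNAs nearest in profile to each tested member, imprinted-list miRNAs well above background on any array, the other Gnas miRNAs, and markers. Replicate numbers did not establish a pairing: deviations from the group means of same-numbered arrays correlated with r = 0.31 over the 41 tested miRNAs and -0.22 over the 11, and there are only 2 pairs.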

Additional observations from a re-analysis of the deposited data

How the results depend on the processing

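Of 24 alternatives, miR-483-5p kept its direction and call in 20 (limma BH-adjusted p from 4.28e-07 to 0.296 over all 24) and miR-296-5p in 19 (1.18e-06 to 0.569). The lowest p-value of each came from the fit with the replicate number as a block. There both miRNAs had the same SE of 0.34, from a variance pooled over the miRNAs, against 0.22 and 0.15 in the main fit. Those 2 p-values reflect the pooling and are not stronger evidence. Alternatives that change only the fit, the filter, the floor or the threshold left both differences as they were. These counts are therefore not counts of independent checks. miR-483-5p, at 2.20, was 2.57 in the authors' table, 0.62 on total gene signal and 2.20 without a filter, with limma BH-adjusted p-values of 0.102, 0.269 and 0.0819, and -0.28 with normexp. By construction the normexp offset of 50 is multiplied by the scale factors; without it, an alternative chosen after seeing the data, the difference was 0.88 (limma BH-adjusted p 0.0214). miR-296-5p, at -2.06, was -0.43 with no scaling, -0.82 with CTCC miRNAs left out of the scaling and 0.10 with spike-ins, which turned its sign. Its decrease was larger in the authors' table, at -4.48, and with quantile normalization, at -2.39. The causes of these changes between settings, for either miRNA, were not tested. Leaving out each array gave 1.98 to 2.54 for miR-483-5p and -2.09 to -1.74 for miR-296-5p. Their log2 ratio within arrays changed by 0.90 to 7.06 over 11 alternatives, all upward, a direction not independent of the filter. The 22 higher calls became 34 with spike-ins, 4 with normexp, 11 with no filter, and, added after seeing the data, 11 with the scanner's gene flag and 13 with normexp without offset; leaving out each array gave 13 to 21, with 13 without M0_sham replicate 2. The 4 lower calls became 0 with no scaling, spike-ins or CTCC miRNAs left out (limma, and 0 at an unadjusted p of 0.05 in each), 25 with normexp, 2 on total gene signal, 8 with a filter of at least 1 array, 2 in an unmoderated fit, 8 with the gene flag and 9 with normexp without offset. Leaving out each array gave 0 to 9, with 9 without M0_sham replicate 2 and 0 without M1_OA replicate 1 (3 at an unadjusted p of 0.05). Higher and lower calls split 22 and 4 in the main scaling, 32 and 0 with none, 16 and 3 with quantile normalization, 21 and 0 without CTCC miRNAs. With the replicate number as a block, 19 were higher and 7 lower, and miR-483-5p (2.20) and miR-296-5p (-2.06) kept their calls, on the pooled SE given above. Scaling to the 75th percentile over all miRNAs was not run, since that percentile was below 0 (-4.68 at the lowest).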
